A study of Mus musculus with 12 samples.

Results

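The genes described here are 33 very long protein-coding genes, most of them known for work at the neuron surface and the synapse, taken as a fixed list of names from the 21755 protein-coding genes annotated on mouse chromosomes 1 to 19 and X. Their gene bodies on mm10 measured 520.0 to 2271 kb, with a median of 1139 kb, and 25 of the 33 reached 1 Mb, a length reached by 59 genes in all. Together they covered 43.7 Mb on 14 chromosomes. Membership was by gene name, and the names were drawn up with earlier results of these data known. The lengths fit the name given to the list. No expression was measured in these tables, so the neural part of that name could not be checked here.

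Hi-C and HiChIP were done in E14Tg2A mouse embryonic stem cells (ESC), a feeder-independent line kept in 100 U/mL Leukemia Inhibitory Factor, and in neuronal committed cells (NCC), made from the same line by 48 h in 1 μM retinoic acid without that factor. Hi-C ligates and sequences pieces of DNA that lie near each other in the fixed nucleus, and HiChIP keeps those bound by an antibody, here against fibroblast growth factor receptor 1 (FGFR1) or the loop anchor protein CTCF. Each of the 3 assays had 2 biological replicates in each cell type, deposited as 1 merged table, so 6 tables are described and no spread between replicates can be given. The NCC are cells of 1 line at 1 time of treatment.

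Genes of this length are a feature of the nervous system: adhesion molecules, axon guidance receptors and synaptic scaffolds are spread over very large introns, so that RNA polymerase needs many hours to cross them. Several lie in common fragile sites and in A and T rich, gene-poor DNA that replicates late. CTCF stops the sliding cohesin ring and so sets many loop ends, and nuclear FGFR1 is studied as a regulator of genes in neuronal development.

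The tables list pairs of anchors, which are stretches of DNA between GATC sites where reads piled up, and count the read pairs that join them. On chromosomes 1 to 19 and X, the ESC tables held 20745652 read pairs in Hi-C, 2662606 in FGFR1 HiChIP and 1218098 in CTCF HiChIP, and those of NCC held 21228099, 3203872 and 1056437. Anchors were found separately in each table. Hi-C anchors covered 36.1% of these chromosomes in ESC and 36.0% in NCC, FGFR1 HiChIP anchors 22.4% and then 26.5%, and CTCF HiChIP anchors 17.0% and then 17.4%. A pair was placed inside a gene when the midpoints of both its anchors lay in the gene body. Pairs inside were compared as log2 of NCC over ESC after scaling to the table totals, with a 95% counting interval, and a gene was called higher or lower when the difference reached 1.2-fold and the interval excluded no change. The background was all protein-coding genes of at least 100 kb with 20 or more pairs.

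In both cell types the 33 genes held few Hi-C ends for their length. Interaction anchor strength, the read-pair ends per kb of gene body per 1000000 read pairs of the table, had a median of 0.269 in ESC and 0.258 in NCC, against 0.570 and 0.594 over 534 other protein-coding genes of at least 300 kb. The ratio of the medians was 0.473 in ESC and 0.434 in NCC. Anchors covered a median of 26.5% of the gene body in ESC and 25.9% in NCC, against 41.7% and 42.7% in the other long genes. The gap was smaller in HiChIP, where the median strength was 0.553 in ESC and 0.728 in NCC with FGFR1 (0.718 and 0.810 in the other long genes) and 0.456 and 0.656 with CTCF (0.665 and 0.726). Median GC content was 38.6% in the 33 genes and 41.0% in the other long genes, while GATC sites, which bound the anchors, were about as dense in both, with medians of 2.37 and 2.38 per kb.

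The genes differed widely among themselves in strength. In ESC the lowest Hi-C strength, on the same scale, was 0.0378 in Ptprd, a presynaptic receptor phosphatase, then 0.0421 in Erbb4, a neuregulin receptor, and 0.0520 in Sgcz, a sarcoglycan. The highest was 1.37 in Cdh13, a membrane-anchored cadherin, then 1.35 in Wwox, an oxidoreductase at a fragile site, and 0.978 in Auts2, a nuclear regulator of transcription. In NCC the same 3 genes led, with 1.29 in Wwox, 1.23 in Cdh13 and 1.11 in Auts2, and the lowest strengths were 0.00442 in Erbb4, 0.0125 in Lrp1b, an LDL receptor relative, and 0.0352 in Sgcz. Across the 33 genes the share of the body under Hi-C anchors went with GC content, with Pearson's r of 0.75 in ESC and 0.81 in NCC, against 0.73 and 0.76 over the 534 other long genes. These are correlations across genes of the same tables, and genes are not independent replicates. Along the genes, split into 10 equal parts, the pooled Hi-C strength in ESC was 0.393 in the first part, 0.282 in the fourth and 0.437 in the last, and the 100 kb past the gene end held 0.532. In NCC the corresponding values were 0.368, 0.277, 0.393 and 0.493. The other genes of at least 300 kb had a similar course at a higher level, with 0.737, 0.589, 0.760 and 0.793 in ESC. Their values in NCC were 0.753, 0.631, 0.792 and 0.796.

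Between the cell types, Hi-C pairs inside the genes were called higher in NCC in 6 of the 33 (24.9% of 2428 background genes) and lower in 12 (22.5% of the background). FGFR1 HiChIP pairs were called higher in 16 genes (25.6% of the background) and lower in 3 (26.1%). CTCF HiChIP pairs were called higher in 16 (16.0% of the background) and lower in 3 (24.3%). The median log2 ratios were -0.12 in Hi-C, 0.23 in FGFR1 HiChIP and 0.29 in CTCF HiChIP, beside 0.01, -0.01 and -0.11 over the background. The count of genes higher in Hi-C was thus below the background share, and both HiChIP counts of higher genes were above theirs. In the other genes of at least 300 kb, 36.5% were called higher and 20.04% lower in FGFR1 HiChIP, with a median of 0.12. The corresponding values were 26.8%, 21.8% and 0.05 in Hi-C, and 22.0%, 23.2% and -0.03 in CTCF HiChIP. Both HiChIP counts of higher genes also lay above these long-gene shares, which were themselves higher than those of the background. The number of bases under anchors moved with the log2 ratios of pairs inside, as described below with the values on anchors found in both cell types.

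**Figure D1:**
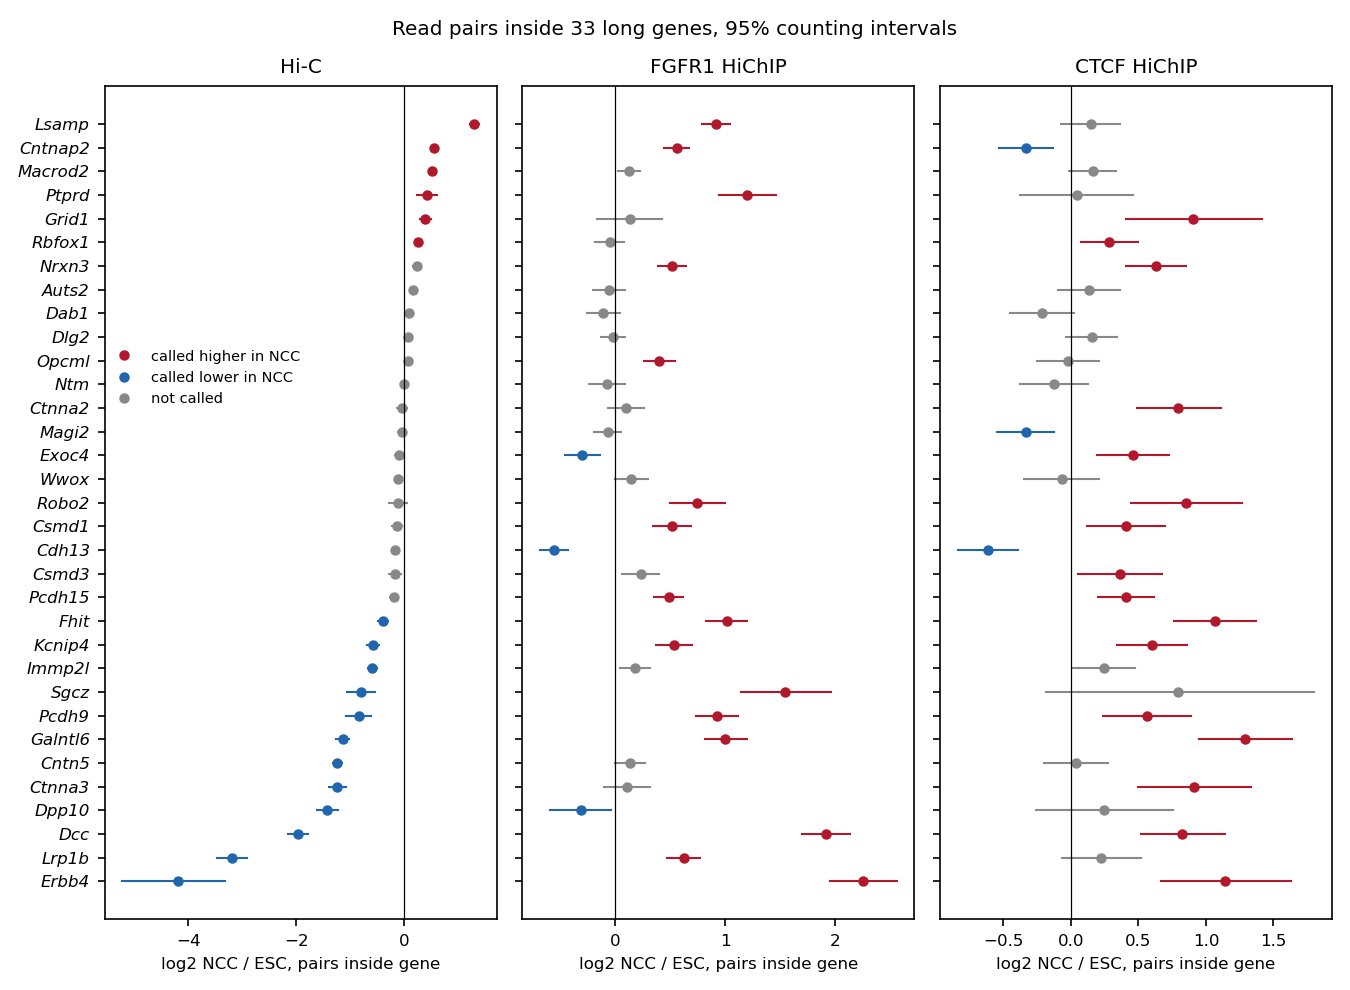
Log2 of NCC over ESC for read pairs inside each of the 33 genes in Hi-C, FGFR1 HiChIP and CTCF HiChIP, ordered by Hi-C, with each panel on its own x axis. Points are pooled tables, horizontal lines are 95% counting intervals, red and blue mark genes called higher and lower in NCC, and the genes at the bottom, from Fhit to Erbb4, are called lower in Hi-C while 8 of them are called higher in FGFR1 HiChIP.

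The counts in each group of genes below are to be read beside the background shares given above. The groups hold 8 genes or fewer, and differences between groups were not tested. Among the 8 immunoglobulin-type, neurexin-type and netrin or slit receptors of the neuron surface, 2 were called higher in Hi-C and 2 lower, 6 were called higher in FGFR1 HiChIP and none lower, and 3 were called higher in CTCF HiChIP and 1 lower. Lsamp, an adhesion protein of the IgLON family on chr16:39984361-42181679, held 1459 Hi-C pairs in ESC and 3674 in NCC. That was the highest Hi-C ratio of the 33, with a log2 value of 1.30 (1.21 to 1.39). Its FGFR1 HiChIP pairs went from 766 to 1739, a log2 ratio of 0.92 (0.79 to 1.04), and its CTCF HiChIP pairs from 352 to 338, a log2 ratio of 0.15 that was not called. Cntnap2, a neurexin-type protein that gathers potassium channels on axons, on chr6:45059357-47304213, rose in Hi-C from 2734 to 4122 pairs (log2 0.56, 0.49 to 0.63) and in FGFR1 HiChIP from 974 to 1726 (log2 0.56, 0.44 to 0.67). Its CTCF HiChIP pairs fell from 522 to 360 (log2 -0.33, -0.53 to -0.13). Lsamp and Cntnap2 were thus higher in NCC in the same 2 assays, while CTCF HiChIP differed between them.

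Dcc, the netrin receptor that steers growing axons, on chromosome 18, went the other way in Hi-C. It held 1110 Hi-C pairs in ESC and 291 in NCC, a log2 ratio of -1.96 (-2.16 to -1.78). With FGFR1 the pairs rose from 214 to 971 (log2 1.91, 1.70 to 2.14) and with CTCF from 145 to 223 (log2 0.83, 0.52 to 1.14). So a 3.90-fold lower Hi-C value stood beside a 3.77-fold higher FGFR1 HiChIP value in the same gene. Cntn5, a contactin on chr9:9660891-10904775, fell in Hi-C from 3458 to 1500 pairs (log2 -1.24, -1.33 to -1.15), with log2 ratios of 0.13 in FGFR1 HiChIP and 0.04 in CTCF HiChIP that were not called. Nrxn3, a presynaptic neurexin, and Robo2, a slit receptor, were called higher in both HiChIP assays and not called in Hi-C. Opcml and Ntm, IgLON proteins whose genes lie within 1 Mb of each other, were not called in Hi-C or CTCF HiChIP, and of these Opcml was called higher in FGFR1 HiChIP. Ntm held 595 and 680 FGFR1 HiChIP pairs (log2 -0.07, -0.24 to 0.09) and 296 and 236 CTCF HiChIP pairs (log2 -0.12, -0.37 to 0.13).

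In the group of 5 cadherins, protocadherins and alpha-catenins, none was called higher in Hi-C and 2 were called lower, 2 were called higher in FGFR1 HiChIP and 1 lower, and 4 were called higher in CTCF HiChIP and 1 lower. Cdh13, on chr8:118283733-119324921, stood apart. Its FGFR1 HiChIP pairs fell from 1100 to 902 (log2 -0.55, -0.68 to -0.42) and its CTCF HiChIP pairs from 456 to 259 (log2 -0.61, -0.84 to -0.39), the lowest ratio of the 33 in both assays. Hi-C pairs in Cdh13 numbered 9516 in ESC and 8670 in NCC, a log2 ratio of -0.17 that was not called. Ctnna3, an alpha-catenin of adhesion junctions on chr10:63430098-65003667, fell in Hi-C from 1167 to 506 pairs (log2 -1.24, -1.39 to -1.09) and rose in CTCF HiChIP from 79 to 129 (log2 0.91, 0.50 to 1.34). Pcdh9, a protocadherin, was called lower in Hi-C (408 to 233 pairs) and higher with FGFR1 (323 to 736) and CTCF (143 to 183). Pcdh15, a protocadherin of hair cell tip links, was called higher in both HiChIP assays, and Ctnna2, the neuronal alpha-catenin, in CTCF HiChIP.

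Of 8 genes grouped as synaptic scaffolds, receptors and channel partners, 2 were called higher and 3 lower in Hi-C, 3 higher and 2 lower in FGFR1 HiChIP, and 4 higher and 1 lower in CTCF HiChIP. Erbb4, on chr1:68032186-69108059, held 197 Hi-C pairs in ESC and 11 in NCC. This was the lowest Hi-C ratio of the 33, a log2 value of -4.20 (-5.22 to -3.32), or 18.3-fold lower in NCC. In FGFR1 HiChIP the same gene had the highest ratio, with 108 pairs in ESC and 617 in NCC (log2 2.25, 1.95 to 2.56), and in CTCF HiChIP it rose from 58 to 111 (log2 1.14, 0.67 to 1.63). Dpp10, an accessory subunit of A-type potassium channels on chr1:123321471-124045559, fell in Hi-C from 792 to 302 pairs (log2 -1.42, -1.62 to -1.23) and in FGFR1 HiChIP from 221 to 214 (log2 -0.31, -0.59 to -0.04). Dpp10 was the only one of the 33 called lower in both Hi-C and FGFR1 HiChIP.

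Within the same group, Ptprd rose in Hi-C from 446 to 611 pairs (log2 0.42, 0.24 to 0.60) and in FGFR1 HiChIP from 169 to 466 (log2 1.2, 0.94 to 1.46), with 104 and 93 CTCF HiChIP pairs that gave no call. Grid1, a delta-type glutamate receptor, rose in Hi-C from 1443 to 1939 (log2 0.39, 0.29 to 0.49) and in CTCF HiChIP from 56 to 91 (log2 0.91, 0.41 to 1.41). Kcnip4, a calcium-binding partner of the same channels as Dpp10, was called lower in Hi-C (1536 to 1050 pairs) and higher with FGFR1 (492 to 858) and CTCF (216 to 284). Magi2, a synaptic scaffold, fell in CTCF HiChIP from 457 to 315 pairs (log2 -0.33, -0.54 to -0.12). Exoc4, a subunit of the exocyst, which tethers secretory vesicles in all cells, fell in FGFR1 HiChIP from 639 to 626 pairs (log2 -0.30, -0.46 to -0.14) and rose in CTCF HiChIP from 215 to 257. The counts of Exoc4 and Dpp10 in FGFR1 HiChIP were close to equal in the tables, and the calls came from the larger total of the NCC table. Dlg2, a postsynaptic scaffold, was not called in any assay.

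All 3 membrane proteins with CUB and sushi or LDL receptor repeats had a Hi-C log2 ratio below 0, from -3.19 to -0.13, and 1 was called lower. Lrp1b, on chr2:40595246-42653624, held 1111 Hi-C pairs in ESC and 125 in NCC (log2 -3.19, -3.46 to -2.92), a 9.09-fold lower value in NCC. Its FGFR1 HiChIP pairs rose from 577 to 1069 (log2 0.62, 0.48 to 0.77), and its CTCF HiChIP pairs, 198 and 201, gave no call. Csmd1 was called higher in both HiChIP assays and Csmd3 in CTCF HiChIP, and neither was called in Hi-C. Of the 3 nuclear and signal transduction proteins, Rbfox1, a neuronal splicing regulator, was called higher in Hi-C (3578 to 4395 pairs, log2 0.26, 0.20 to 0.33) at the edge of the threshold and in CTCF HiChIP (363 to 384). Auts2 and Dab1, the adaptor of reelin signaling, were not called in any assay. Dab1 held 692 and 772 FGFR1 HiChIP pairs (log2 -0.11, -0.26 to 0.04) and 346 and 259 CTCF HiChIP pairs (log2 -0.21, -0.45 to 0.02).

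The 6 enzymes and other proteins not particular to neurons included 1 gene called higher and 4 lower in Hi-C, 3 higher in FGFR1 HiChIP and 2 higher in CTCF HiChIP. Macrod2, a hydrolase of ADP-ribose on proteins, rose in Hi-C from 5452 to 8008 pairs (log2 0.52, 0.47 to 0.57). Galntl6, of the family that starts O-linked glycans, on chr8:57774052-58912640, fell in Hi-C from 1769 to 825 (log2 -1.13, -1.25 to -1.01), and with CTCF it had the highest ratio of the 33, from 107 to 227 pairs (log2 1.29, 0.95 to 1.64). Fhit, a nucleotide hydrolase at a fragile site, fell in Hi-C from 2047 to 1590 pairs and rose with FGFR1 from 340 to 826 (log2 1.01, 0.83 to 1.2) and with CTCF from 145 to 263 (log2 1.06, 0.77 to 1.37). Sgcz fell in Hi-C from 335 to 197 pairs and rose in FGFR1 HiChIP from 66 to 231 (log2 1.54, 1.14 to 1.96), while its 16 and 24 CTCF HiChIP pairs gave no call. Immp2l, a subunit of a mitochondrial inner membrane peptidase, was called lower in Hi-C (3241 to 2208 pairs) and in no HiChIP assay, and Wwox was not called in any.

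Reading the assays together, 6 genes were called lower in Hi-C and higher in both HiChIP assays, namely Dcc, Erbb4, Fhit, Galntl6, Kcnip4 and Pcdh9. This combination was found in 29 of 2327 background genes tested in all 3 assays (1.25%) and in 1.94% of the other genes of at least 300 kb. On anchors that overlap an anchor of the other cell type, described below, only Galntl6 of 32 genes tested kept all 3 calls (0.208% of 1920 background genes). These calls were still scaled to full table totals, and calls scaled to the pairs kept were not made. At this scaling Fhit turned to a log2 ratio of -0.22 in FGFR1 HiChIP and Kcnip4 to -0.37 in CTCF HiChIP, neither called. Pcdh9 lost its Hi-C and CTCF HiChIP calls, and Dcc and Erbb4 kept the Hi-C call alone. Lower in Hi-C and higher in FGFR1 HiChIP were 8 genes (5.76% of the background, 8.74% of the other genes of at least 300 kb). Those lower in Hi-C and higher in CTCF HiChIP were 7 (3.39% and 3.88%). No gene of the 33 was called in the same direction in all 3 assays, and 5 (Auts2, Dab1, Dlg2, Ntm and Wwox) were called in none. Background shares for these counts were not computed, so they describe the list only. The Hi-C and HiChIP tables are separate libraries, and the cause of the opposite ratios was not tested.

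Anchor coverage moved with these ratios. Across the 33 genes, the log2 ratio of pairs inside and the log2 ratio of bases under anchors had Pearson's r of 0.98 in Hi-C, 0.97 in FGFR1 HiChIP and 0.92 in CTCF HiChIP. Both quantities come from the same reads, since the anchors were called from them, so this is a description of the tables. In Hi-C, anchors covered 8.11% of Erbb4 in ESC and 0.955% in NCC, 12.8% and 1.66% of Lrp1b, 22.1% and 8.40% of Dcc, 12.4% and 25.9% of Lsamp, and 15.4% and 26.0% of Cntnap2. The genes with the largest ratios were those whose anchors appeared or vanished between the tables. In FGFR1 HiChIP the coverage of Erbb4 went from 7.37% to 29.2% and that of Dcc from 12.5% to 36.7%.

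**Figure D2:**
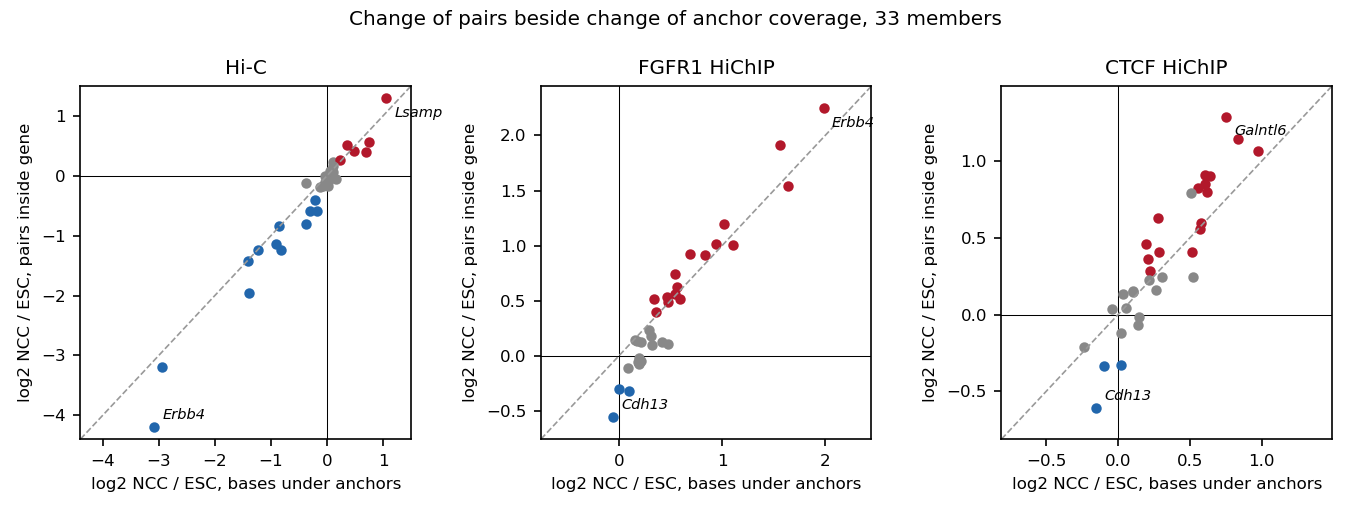
Log2 of NCC over ESC of pairs inside each gene (y) against that of bases under anchors in the gene (x) for the 33 genes in 3 assays, with a dashed line of equal change and red and blue for genes called higher and lower in NCC. The points lie along the line, with r of 0.98, 0.97 and 0.92.

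On anchors that overlap an anchor of the other cell type, most of the differences shrank. The ratios on these anchors were still scaled to the full table totals, not to the pairs kept. With Hi-C pairs between such anchors only, none of the 33 was called higher (17.8% of the background) and 9 were called lower (20.3%), with a median log2 ratio of -0.15 beside -0.01 over the background. Erbb4 then held 34 pairs in ESC and 11 in NCC (log2 -1.66, -2.79 to -0.65), Lrp1b 156 and 115 (log2 -0.47), Dcc 277 and 208 (log2 -0.45) and Galntl6 1057 and 663 (log2 -0.71), all 4 still called lower. Lsamp, with 970 and 1019 pairs, was no longer called (log2 0.04, -0.09 to 0.17). The Hi-C gain of Lsamp therefore lay on pairs with an anchor that had no counterpart in the other table.

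In FGFR1 HiChIP, the same restriction kept 1574048 of 2662606 read pairs in ESC and 1645648 of 3203872 in NCC. That smaller share in NCC lowers all ratios scaled to full totals. At this scaling 3 genes were called higher (7.75% of the background) and 6 lower (27.4%), with a median of -0.01, while the background median itself moved to -0.18. Those higher were Pcdh9 (163 to 265 pairs, log2 0.43), Lsamp (387 to 628, log2 0.43) and Galntl6 (163 to 246, log2 0.33), which are named here because so few were left. Erbb4 held 72 and 111 pairs (log2 0.36, -0.08 to 0.81) and Dcc 153 and 206 (log2 0.16, -0.15 to 0.47), neither called at this scaling. In CTCF HiChIP, 4 of 32 genes with enough pairs were called higher (5.84% of the background) and 3 lower (12.5%), with a median of -0.02 beside -0.12 over the background. Galntl6 stayed higher, with 61 and 93 pairs (log2 0.81, 0.33 to 1.30), and Cdh13 stayed lower in FGFR1 (584 to 498 pairs) and CTCF HiChIP (198 to 122). Of the genes called with all anchors, the sign of the ratio, scaled to full totals, turned in 4 of 18 in Hi-C, 5 of 19 in FGFR1 HiChIP and 5 of 19 in CTCF HiChIP, none of them called the other way. Beside the background medians, the median of the 33 genes was higher in both HiChIP assays and lower in Hi-C on these anchors.

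On the smaller set of anchors with the same start and end in both tables, no gene was called higher in Hi-C (1.85% of the background) and 6 of 32 with enough pairs were called lower (9.15%). In FGFR1 HiChIP none of 29 was called higher (0.580%) and 6 were called lower (9.57%), with a median log2 ratio of -0.39 beside -0.36 over the background. These anchors kept 166723 of 2662606 FGFR1 HiChIP read pairs in ESC and 156352 of 3203872 in NCC. That smaller share in NCC lowers all ratios scaled to full table totals, as these were. In CTCF HiChIP 1 of 21 was called higher (1.45%) and 3 lower (5.33%), with a median of -0.0010 beside -0.24. In FGFR1 HiChIP the median of the 33 genes was thus no longer above that of the background.

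**Figure D3:**
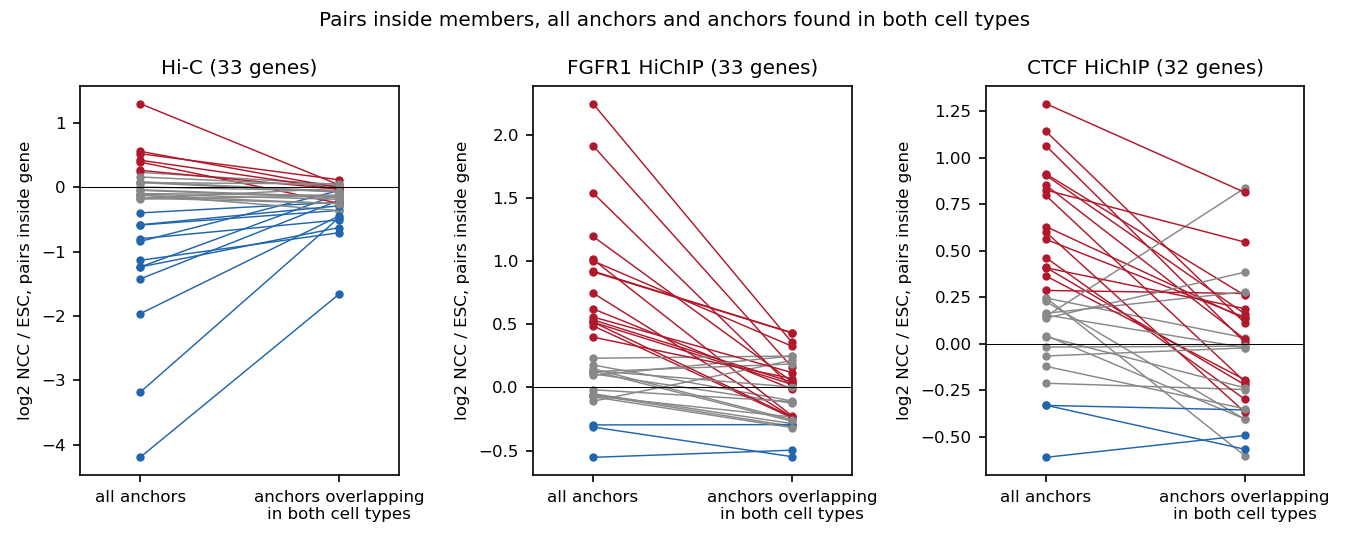
Log2 of NCC over ESC of pairs inside each gene, with all anchors (left points) and with anchors that overlap an anchor of the other cell type's table (right points), lines joining the values of 1 gene and colored by the call with all anchors. Most lines run toward 0, while Erbb4 in Hi-C stays lowest at -1.66 and Lsamp in Hi-C ends at 0.04.

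Base composition was set beside the ratios in 2 classes of the list. Among the 17 of the 33 genes at or under their median GC content, 4 were called higher and 9 lower in Hi-C, and 12 were called higher and 1 lower in FGFR1 HiChIP. In 119 other genes of at least 300 kb at or under the same GC content, 26.1% were called higher and 43.7% lower in Hi-C, and in 120 such genes 57.5% were called higher and 10.0% lower in FGFR1 HiChIP. In Hi-C these shares of the other long genes stood beside 23.5% and 52.9% of the 17, and in FGFR1 HiChIP beside 70.6% and 5.88%. In CTCF HiChIP the 17 genes had 8 higher and 1 lower call, and the other long genes of that class, 115 in number, 33.04% and 15.7%. Among the 16 genes above that GC content, 2 were called higher and 3 lower in Hi-C, where 27.0% and 15.3% of 404 other long genes were, and 4 higher and 2 lower in FGFR1 HiChIP, where 30.2% and 23.0% were. In CTCF HiChIP 8 of the 16 were called higher and 2 lower, against 18.9% and 25.3% of 403 other long genes. The count of CTCF HiChIP gains was thus 8 in each class, while most of the FGFR1 HiChIP gains and Hi-C losses lay in the class poorer in G and C. The part of base composition in the differences was not tested further.

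In steps of 100 kb along the genes, the gene with the highest Hi-C ratio, Lsamp, and the 3 with the lowest differed between the cell types over most of their length. Of 10 such steps in Erbb4, 7 held no Hi-C anchor in NCC and none lacked one in ESC, while 5 of the 10 held no FGFR1 HiChIP anchor in ESC and none lacked one in NCC. The first step of Erbb4, the 100 kb from its start site, held 114 Hi-C ends in ESC and 57 in NCC, and 204 and 330 FGFR1 HiChIP ends. Within 10 kb of that start site, FGFR1 HiChIP ends instead fell from 79 to 53. Of 20 steps in Lrp1b, 11 held no Hi-C anchor in NCC and 1 in ESC. In Lsamp the order was turned: 4 of 21 steps held no Hi-C anchor in ESC and none lacked one in NCC, and the eighteenth step held 45 Hi-C ends in ESC and 1258 in NCC. Over all 33 genes, 20 of 421 steps held no Hi-C anchor in ESC and 31 in NCC, against 25 and 3 in FGFR1 HiChIP and 25 and 20 in CTCF HiChIP.

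**Figure D4:**
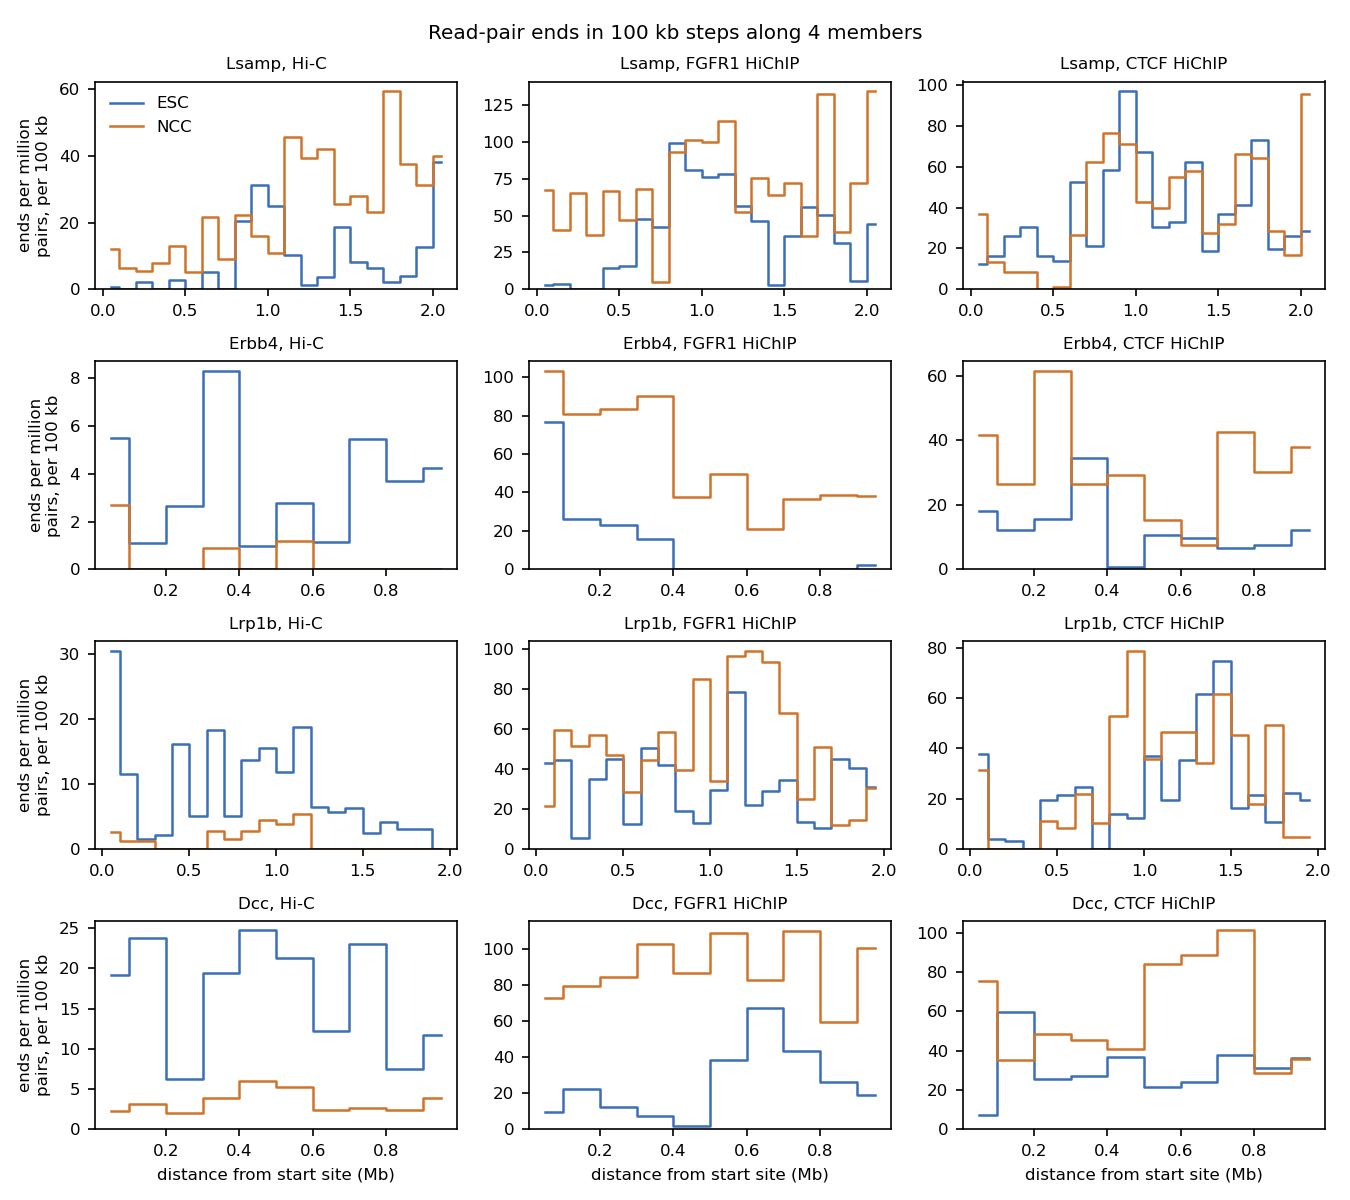
Read-pair ends per 1000000 read pairs in steps of 100 kb (y) against the distance from the start site in Mb (x) for Lsamp, Erbb4, Lrp1b and Dcc in 3 assays, ESC in blue and NCC in orange, each panel with its own y axis from 0. Hi-C is higher in NCC along most of Lsamp and lower along Erbb4, Lrp1b and Dcc, and FGFR1 HiChIP is higher in NCC along Erbb4 and Dcc.

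Most contacts of these genes within 1 Mb stayed in the gene. The share inside is the number of pairs inside divided by these plus the pairs from the gene body to 1 Mb on each side. In Hi-C its median over the 33 genes stood at 74.0% in ESC and 74.2% in NCC, beside 60.0% and 61.6% in the other, mostly shorter, long genes. In ESC it was highest in Cntnap2 at 84.5% (83.2 to 85.7), Lrp1b at 84.4% and Ptprd at 84.3%, and lowest in Robo2 at 58.2% (55.3 to 61.1), Exoc4 at 61.3% and Galntl6 at 61.4%. In NCC the highest were Lrp1b at 88.0%, Cntnap2 at 87.3% and Macrod2 at 84.2%, and the lowest Erbb4 at 52.4% (32.4 to 71.7, from 11 pairs), Galntl6 at 53.5% and Pcdh9 at 56.4%. Robo2, with the lowest share in ESC, is also the shortest of the 33.

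Between the cell types, the Wilson intervals of the Hi-C share lay apart and higher in NCC in 7 genes (18.5% of the background) and apart and lower in 7 (7.95%), and overlapped in 19. The largest drops among these were in Dpp10, from 77.6% to 64.0%, in Pcdh9, from 69.0% to 56.4%, and in Dcc, from 68.7% to 59.3%, all of which were called lower in Hi-C pairs inside. The largest gain was in Ctnna2, from 73.7% (71.9 to 75.5) to 79.7% (77.9 to 81.3). In FGFR1 HiChIP no gene was higher (5.01% of the background) and 2 were lower (4.18%), Dpp10 (74.2% to 62.2%) and Ctnna2 (74.4% to 68.3%). In CTCF HiChIP no gene was higher (0.514% of the background) and 2 were lower (4.11%), Pcdh9 (89.9% to 72.9%) and Cdh13 (77.7% to 68.9%). The names here were chosen after their values were seen.

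The distance between anchors was taken over all pairs inside. In Hi-C, 24.6% of the pairs inside joined anchors at least 100 kb apart in ESC (24.3 to 24.9) and 26.3% in NCC (26.0 to 26.5), against 19.6% and 19.4% in the other, shorter long genes. This share depends on which pairs are counted: without pairs inside a single anchor it was 37.9% and 38.9%, and with scores of at least 2 it was 10.29% and 10.32%. With FGFR1 the share was 27.6% in ESC and 29.7% in NCC, and with CTCF it was 22.5% (21.6 to 23.4) and 28.1% (27.1 to 29.0). The CTCF share was higher in NCC in 31 of 33 genes, by a median of 6.01 percentage points, and the other long genes also rose, from 16.2% to 19.1%. Pairs within a single anchor made up 42.5% of CTCF HiChIP pairs inside the genes in ESC and 29.9% in NCC. The rise with distance in CTCF HiChIP thus stood beside fewer pairs within an anchor, which in the other long genes were 44.5% and 34.2%. By gene, the largest drop in the Hi-C share at 100 kb or more was 14.6 percentage points lower in NCC, in Lrp1b (22.6% to 8%), and the largest gain 13.2 points, in Lsamp (14.1% to 27.3%). Between 20 kb bins at least 100 kb apart, no pair of bins inside the genes held more than 19 Hi-C read pairs in either table, so single loops were not described.

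**Figure D5:**
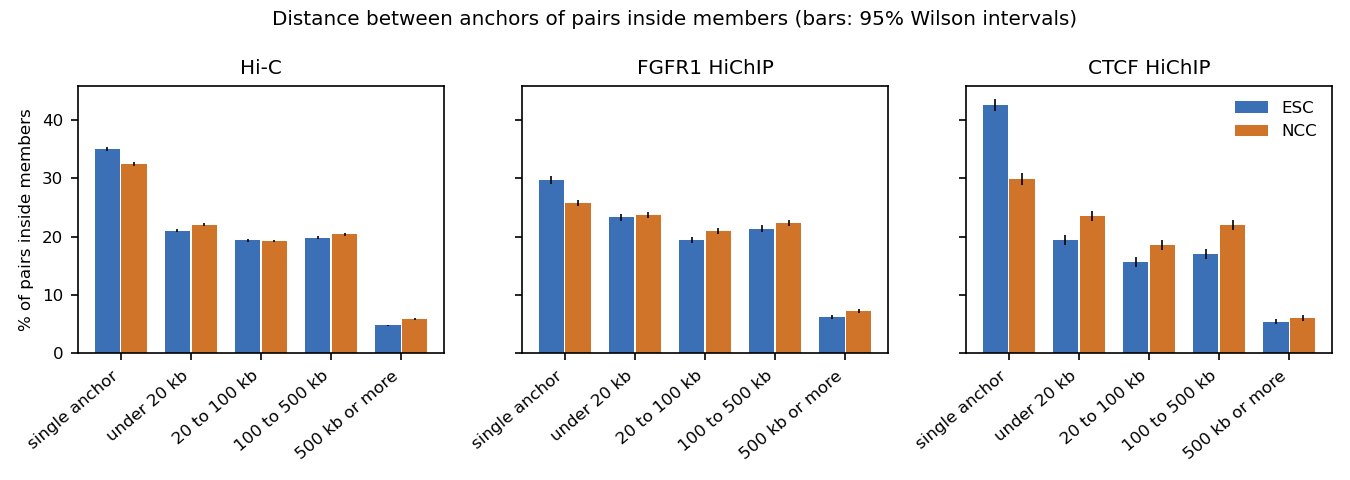
Share of pairs inside the 33 genes (y, in %) by the distance between their anchors (x) in 3 assays, ESC in blue and NCC in orange, bars from 0 with 95% Wilson intervals over pooled pairs. In CTCF HiChIP the share within a single anchor is 42.5% in ESC and 29.9% in NCC, and all classes of longer distance are higher in NCC.

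At the start sites, taken as 10 kb on each side of the outermost annotated start, differences were common, as they were in the background. Hi-C ends were called higher in NCC at 7 of 31 start sites with 20 or more ends (28.6% of the background) and lower at 10 (32.1%). FGFR1 HiChIP ends were called higher at 15 of 31 (28.8%) and lower at 7 (30.7%), and CTCF HiChIP ends higher at 4 of 24 (24.6%) and lower at 8 (24.5%). The count of FGFR1 HiChIP start sites that were higher stood above its background share, and it was 8 of 21 with scores of at least 2 and 7 of 22 in windows of 2 kb, settings for which no background was computed. In Hi-C, Cntn5 fell from 125 to 34 ends (log2 -1.91, -2.50 to -1.35), Nrxn3 from 345 to 101 (log2 -1.81) and Dcc from 89 to 27 (log2 -1.75). Lsamp had no Hi-C end at its start site in ESC and 38 in NCC, at least 12.4-fold higher against a floor of 3 ends per table, Magi2 rose from 142 to 382 (log2 1.39) and Opcml from 154 to 286 (log2 0.86).

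In FGFR1 HiChIP, the start site of Pcdh15 held no end in ESC and 91 in NCC, at least 25.2-fold higher, that of Lsamp none and 27, at least 7.48-fold higher, that of Lrp1b none and 26, at least 7.20-fold higher, and that of Dcc 4 and 64 (log2 3.73, 2.31 to 5.65). The start sites with the lowest ratios were those of Kcnip4, from 58 to 13 ends (log2 -2.42), Csmd3, from 41 to 18 (log2 -1.45), and Cdh13, from 154 to 75 (log2 -1.30). Kcnip4 was thus called lower at its start site and higher over its body in FGFR1 HiChIP. The same held for Erbb4, from 79 to 53 ends at its start site (log2 -0.84), and for Opcml, from 86 to 47 (log2 -1.14). With CTCF, the start site of Dcc held no end in ESC and 37 in NCC, at least 14.2-fold higher, that of Ctnna2 none and 28, at least 10.8-fold higher, and that of Auts2 rose from 15 to 32 (log2 1.30). Nrxn3 had 20 CTCF HiChIP ends at its start site in ESC and none in NCC, at least 5.78-fold lower, Dpp10 fell from 34 to 6 (log2 -2.30) and Sgcz from 17 to 3 (log2 -2.30). The start site of Ptprd, the longest of the genes, held no Hi-C or CTCF HiChIP anchor in either cell type.

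Matches to the CTCF consensus are shown for the anchors inside the genes with the highest CTCF HiChIP over Hi-C ratio of ends in each cell type, among those with at least 20 CTCF HiChIP ends and exactly 1 match, since these are the places where CTCF HiChIP stood out most from Hi-C. The rule took 3 anchors in each cell type, and those in Lsamp and Nrxn3 were among the 3 in both. Each sequence is read 5′ to 3′ on the strand of the match from the mm10 genome, with the match in capitals. Both strands were searched.
Lsamp, chr16:42165114-42165143, minus strand: catctctgtCCACCAGGTGGCaacagtgag
Nrxn3, chr12:89513961-89513990, plus strand: tagttttagCCAGTAGAGGGCagcagtgta
Ntm, chr9:29409392-29409421, minus strand: ccctcatgaCCAGCAGAGGGCtttctgcgc
Pcdh15, chr10:74642312-74642341, minus strand: tcctcctgtCCAGCAGGTGGCagcagtcga

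The Lsamp match lay in an intron 16.5 kb before the gene end, in an anchor with 22 CTCF HiChIP ends in ESC and 53 in NCC, and no Hi-C anchor overlapped that span in either cell type. The Nrxn3 match lay in an intron 791 kb from the start site, in an anchor with 23 and 40 CTCF HiChIP ends beside 102 and 125 Hi-C ends. The Ntm match lay in an intron 554 kb from the start site, with 40 CTCF HiChIP and 177 Hi-C ends in ESC. The same Ntm anchor was found in NCC, with 35 CTCF HiChIP and 201 Hi-C ends, outside the highest 3 there. The Pcdh15 match lay in a coding exon 7.40 kb before the gene end, with 22 CTCF HiChIP and 89 Hi-C ends in NCC. All of these are small counts. A match is a description of the letters and not proof of binding: the consensus was found in 2.63% of all CTCF HiChIP anchors in ESC and 2.75% in NCC, and in 2.88% and 2.86% of Hi-C anchors. These shares are per anchor and not per base. Median anchor length was 2886 bp in ESC and 2914 bp in NCC for Hi-C, and 2213 and 2245 bp for CTCF HiChIP. Inside the 33 genes, 34 of 2456 CTCF HiChIP anchors in ESC (1.38%) and 44 of 2775 in NCC (1.59%) held the consensus, and among anchors with at least 20 ends 11 of 195 (5.64%) and 7 of 169 (4.14%). The gene bodies held 2.75 matches per Mb, against 3.86 in the other long genes, with 13 in Cdh13, 11 each in Ntm and Wwox, and none in Erbb4 or Robo2.

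Set against Hi-C of the same cell type, the gene bodies held more HiChIP ends than Hi-C ends at equal table totals. The median log2 ratio of FGFR1 HiChIP over Hi-C was 0.84 in ESC and 1.48 in NCC, above 0 in 28 and 27 of the 33 genes, beside 0.30 and 0.40 in the other genes of at least 300 kb and 0.07 in all genes of at least 100 kb in both cell types. With CTCF this ratio had a median of 0.63 in ESC and 1.27 in NCC, above 0 in 27 and 28 genes, beside 0.20 and 0.35 in the other long genes. Of those other long genes, 360 of 524 in ESC and 367 of 522 in NCC were above 0 with FGFR1, and 343 of 528 and 343 of 521 with CTCF. Over all genes of at least 100 kb these counts were 1327 of 2432 and 1315 of 2436 with FGFR1, and 1280 of 2434 and 1283 of 2431 with CTCF. Among the 33 genes in ESC, the highest FGFR1 ratios were those of Pcdh9 (2.40), Lsamp (1.89) and Lrp1b (1.88), and the lowest that of Wwox (-0.61). In NCC they were those of Erbb4 (7.04, 6.75 to 7.34), Lrp1b (5.34) and Dcc (3.90), with Cdh13 (-0.50), Auts2 (-0.48) and Wwox (-0.42) lowest. The NCC ratios of Erbb4 and Lrp1b rest on Hi-C coverage of 0.955% and 1.66% of the gene body. Wwox, Auts2 and Cdh13, with the lowest ratios in NCC, had the highest Hi-C coverage there.

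Pairs between the 33 genes on different chromosomes were few. In Hi-C, 140 were counted in ESC, where 109 were expected from the inter-chromosomal ends of the genes (1.28-fold, exact Poisson interval 1.08 to 1.51), and 181 in NCC, where 123 were expected (1.47-fold, 1.26 to 1.70). Between the other genes of at least 300 kb the ratio was 1.13 (1.11 to 1.15) in ESC and 1.096 (1.08 to 1.11) in NCC. The interval of the 33 genes thus lay apart from that of the other long genes in NCC and overlapped it in ESC. In FGFR1 HiChIP 42 and 79 pairs were counted where 31.6 and 64.6 were expected, with ratios of 1.33 (0.96 to 1.80) and 1.22 (0.97 to 1.52). In CTCF HiChIP 21 and 22 were counted where 10.4 and 16.5 were expected, a ratio of 2.02 (1.25 to 3.09) in ESC and 1.33 (0.84 to 2.02) in NCC, against 1.13 (1.07 to 1.196) and 1.04 (0.99 to 1.101) in the other long genes. There the intervals lay apart in ESC and overlapped in NCC, the reverse of Hi-C.

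A second list of 40 genes of the same families, such as other contactins, cadherins, glutamate receptors and neuregulins, was set beside these. After each count, parentheses hold the share called in the background and in the genes of at least 300 kb outside the 33. In Hi-C, 7 of 38 with enough pairs were called higher (24.9% and 26.8%) and 14 lower (22.5% and 21.8%), with a median log2 ratio of -0.18. The highest were Cntn6 (7 to 50 pairs, log2 2.80), Cdh18 (278 to 1088, log2 1.94) and Grm7 (383 to 895, log2 1.19), and the lowest Cntn4 (1083 to 152, log2 -2.87), Unc5c (1026 to 432, log2 -1.28) and Ctnnd2 (1111 to 575, log2 -0.98). Of the contactins in the list, Cntn6 was thus the highest and Cntn4 the lowest, and Cntn3 (553 to 533, log2 -0.09) was not called. In FGFR1 HiChIP, 18 of 39 were called higher (25.6% and 36.5%) and 5 lower (26.1% and 20.04%), with a median of 0.19. Il1rapl1 (3 to 81 pairs, log2 4.49), Cntn6 (log2 1.90) and Robo1 (log2 0.95) had the highest ratios. Rbfox3 (log2 -0.59), Cdh4 (log2 -0.85) and Ptprg (log2 -1.13) had the lowest. In CTCF HiChIP, 10 of 38 were called higher (16.0% and 22.0%) and 17 lower (24.3% and 23.2%), with a median of -0.28 where that of the 33 genes was 0.29. The highest were Cntn6 (5 to 22 pairs, log2 2.34), Pcdh7 (44 to 113, log2 1.57) and Robo1 (151 to 207, log2 0.66), and the lowest Cdh12 (103 to 35, log2 -1.35), Nrg1 (293 to 140, log2 -0.86) and Cntnap4 (108 to 52, log2 -0.85).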

How the data were processed

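Hi-C, FGFR1 HiChIP and CTCF HiChIP were analysed in ESC and NCC. The deposited score of an anchor pair is a raw count. The authors aligned reads to mm10 with HiC-Pro, took anchors and scores from hichipper run on each sample by itself without a filter on q, and merged 2 biological replicates in each table. Versions of these tools are not given in the sources used here. All anchors of the 6 tables start and end at a GATC site. All measurement columns were mapped to a cell type and assay.

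Gene bodies came from GENCODE M21 and the 30-base sites from the RefSeq copy of GRCm38 (mm10). A gene that lay in introns of another was kept in the outer gene's counts: 5 coding genes lie inside 4 of the 33 (Lrrtm3 and Gm10118 in Ctnna3, Lrrtm1 in Ctnna2, Lrrn3 in Immp2l, Flrt3 in Macrod2). A pair within 1 anchor adds 2 ends to that anchor. Ratios were scaled to table totals on 20 chromosomes, which hold at least 99.1% of read pairs, with exact Clopper-Pearson 95% intervals. Shares have Wilson intervals. With 1 merged table per cell type and assay, no p-value is given, the intervals cover counting error only, PCR reads are not independent molecules, and the comparison is of pooled libraries. At this depth, in data simulated on the FGFR1 HiChIP tables over 2415 genes, 94.8% of genes changed 2-fold were called and 4.06% of unchanged ones. The same share for CTCF HiChIP (2334 genes) was 84.4% and for Hi-C (2429 genes) 100%. The simulation drew counting error alone around a common rate per gene, with no anchor appearing or vanishing and no spread between replicates. Its 4.06% is therefore not the rate of false calls in these tables.

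All 33 genes are accounted for. Values are given in full for the 5 highest and the 5 lowest ratios of pairs inside in each assay, for the 3 highest and 3 lowest of the other measures, and where named after their values were seen. The genes, groups and lists were chosen with earlier results of these data known. Alternatives covered anchor placement and choice, single-anchor pairs, score, strong anchors, gene model, scaling, fold, flank, distance and window. Python 3.11.15, numpy 2.4.6, pandas 2.3.3 and scipy 1.17.1 were used.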

Additional observations from a re-analysis of the deposited data

How the results depend on the processing

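No paired analysis was possible because each table merges both replicates, and for the same reason no replicate could be left out. Depth limits CTCF HiChIP most, and anchors called separately in each table limit all comparisons between cell types. With a fold of 1.5 in place of 1.2, 1 gene was called higher in Hi-C, 10 higher and 0 lower in FGFR1 HiChIP, and 10 higher and 1 lower in CTCF HiChIP. Scaling to the pairs expected from each table's distance profile left 1 gene lower in FGFR1 and 1 in CTCF HiChIP. Counting every overlapping anchor gave ratios of median Hi-C strength of 0.484 in ESC and 0.420 in NCC. Without pairs inside a single anchor these were 0.447 and 0.407, the share inside 63.1% and 64.1%, the share at 100 kb or more 37.9% and 38.9%, the FGFR1 HiChIP median 0.42, the NCC ratio of FGFR1 HiChIP over Hi-C 1.56, and 4 start sites were lower in each of FGFR1 and CTCF HiChIP. With scores of at least 2 the corresponding values were 0.518 and 0.417, 92.1% and 93.0%, 10.29% and 10.32%, 0.40 and 1.58, with 8 of 21 start sites higher in FGFR1 HiChIP and 0 higher and 4 lower of 9 in CTCF HiChIP. Between chromosomes such scores gave no ratio, with 2 pairs in ESC where 0.358 were expected and 0 in NCC where 0.180 were expected. The NCC ratio of FGFR1 HiChIP over Hi-C was 1.38 without the strongest 1% of anchors and 1.40 with the longest transcript, which also gave a share inside of 71.7% in ESC and 24.0% and 25.6% of pairs at 100 kb or more. Flanks of 500 kb gave a share inside of 79.6% and 80.3%, and a limit of 200 kb gave 15.7% and 17.2% of pairs. Windows of 2 kb left 7 of 22 start sites higher in FGFR1 HiChIP and 2 higher and 1 lower of 13 in CTCF HiChIP, and windows of 25 kb 8 higher and 5 lower of 28 in CTCF HiChIP.

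The remaining alternatives were chosen after seeing the data. Ctnna3, Erbb4, Lrp1b, Pcdh9 and Sgcz had the lowest Hi-C coverage in NCC, and all were among the 12 genes called lower in Hi-C. Without them 7 genes were lower in Hi-C, a number set by that choice and so no check of the calls. On overlapping anchors 0 genes were higher in Hi-C, 3 higher and 6 lower in FGFR1 HiChIP (median -0.012) and 4 higher in CTCF HiChIP (median -0.017). Of called genes, signs then turned in 4 in Hi-C, 5 in FGFR1 and 5 in CTCF HiChIP, and among those with the 5 highest or lowest ratios these were Grid1 (-0.25), Ptprd (-0.027) and Cntnap2 (-0.0067) in Hi-C and Fhit (-0.22) in FGFR1 HiChIP. On anchors identical in both tables, 0 genes were higher and 6 lower in Hi-C, 0 higher and 6 lower in FGFR1 HiChIP (median -0.39, background -0.36), and 1 higher in CTCF HiChIP (median -0.0010, background -0.24). With scaling to full table totals, signs turned there in 6, 12 and 7 called genes, of which 2, 2 and 1 were then called the other way (Ptprd at -0.91 and Rbfox1 at -0.42 in Hi-C, Lrp1b at -1.54 and Csmd1 at -0.69 in FGFR1 HiChIP, Exoc4 at -1.09 in CTCF HiChIP). Among those with the 5 highest or lowest ratios these were Ctnna3 (0.48), Grid1 (-0.15), Ptprd (-0.91) and Cntnap2 (-0.00056) in Hi-C, Dpp10 (0.42), Fhit (-0.15), Dcc (-0.35) and Ptprd (-0.34) in FGFR1 HiChIP, and Cntnap2 (0.37) in CTCF HiChIP. In these settings fewer pairs were counted, while the ratios stayed scaled to full table totals. In FGFR1 HiChIP a smaller share of pairs was kept in NCC than in ESC on both sets of anchors, which lowers all its ratios there. Turned signs and lost calls therefore depend on this scaling. Signs and calls scaled to the pairs kept were not computed, and other causes of the changes were not tested.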
